A study of Mus musculus with 6 samples.

Results

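Autophagy is the route by which a cell encloses part of its own content in a double membrane and delivers it to the lysosome, and 4 of its genes were followed here in mouse liver: Map1lc3b, Atg7, Rragc and Atp6v0a1. Every spot on the arrays whose annotation named just 1 of these genes was taken, bright or dim, which gave 7 of 16896 spots. Map1lc3b, Atg7 and Rragc had 2 spots each and Atp6v0a1 had 1. The genes had been picked because earlier results from the same 3 mice placed them among the most different, so their differences are a description and support no test.

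Whole livers of 3 male mice gave the RNA, 1 mouse per group. The youngest, fed ad libitum, was 17 days old when killed, and the older mice were an ad libitum mouse of 174 days and one on caloric restriction of 177 days. The labels name no strain, genotype or degree of restriction, and nothing besides the label gives the unit of the 17-day age. RNA of each liver was put on an array A and an array B, which have 8448 separately numbered spots each. With 1 mouse per group, no difference below has an error between animals.

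In the textbook scheme, ATG7 is the E1-like enzyme that activates the ubiquitin-like proteins ATG12 and LC3. Lipid-linked LC3B, the product of Map1lc3b, then sits in the autophagosome membrane and is degraded with the cargo. RagC, from Rragc, pairs with RagA or RagB on the lysosome surface and recruits mTORC1, the kinase complex that restrains autophagy when amino acids are plentiful. Atp6v0a1 encodes an a subunit in the membrane sector of the vacuolar proton pump, which acidifies the lysosome and takes part in the same amino acid sensing. In liver, autophagy is known for supplying amino acids and lipids during fasting.

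Many lysosomal and autophagy genes carry a promoter element bound by the transcription factor TFEB, whose centre is the palindrome CACGTG, and the members' promoters are shown for that reason. The windows run from 250 bases before to 50 bases after the start site in RefSeq annotation of the GRCm38.p6 assembly, all on the plus strand, at chr8:121590188-121590487 for Map1lc3b, chr6:114670846-114671145 for Atg7, chr4:123917183-123917482 for Rragc and chr11:101010148-101010447 for Atp6v0a1. Capitals mark CACGTG, which reads the same on both strands.
Map1lc3b: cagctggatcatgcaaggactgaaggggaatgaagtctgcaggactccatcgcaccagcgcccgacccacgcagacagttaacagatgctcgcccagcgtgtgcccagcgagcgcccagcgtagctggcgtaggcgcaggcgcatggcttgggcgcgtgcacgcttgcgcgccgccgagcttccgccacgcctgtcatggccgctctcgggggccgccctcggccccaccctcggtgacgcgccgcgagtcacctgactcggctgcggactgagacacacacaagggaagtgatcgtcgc
Atg7: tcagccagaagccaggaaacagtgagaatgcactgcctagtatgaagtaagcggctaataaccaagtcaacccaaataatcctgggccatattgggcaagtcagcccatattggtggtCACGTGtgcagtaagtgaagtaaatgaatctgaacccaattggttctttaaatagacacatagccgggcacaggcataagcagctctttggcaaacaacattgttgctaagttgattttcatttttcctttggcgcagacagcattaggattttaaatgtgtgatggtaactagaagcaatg
Rragc: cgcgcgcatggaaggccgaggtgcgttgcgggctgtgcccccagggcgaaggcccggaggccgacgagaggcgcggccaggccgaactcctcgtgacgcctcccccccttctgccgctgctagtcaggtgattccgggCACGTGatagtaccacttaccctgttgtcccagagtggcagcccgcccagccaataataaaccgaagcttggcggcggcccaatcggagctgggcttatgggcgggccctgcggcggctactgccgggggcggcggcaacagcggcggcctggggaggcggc
Atp6v0a1: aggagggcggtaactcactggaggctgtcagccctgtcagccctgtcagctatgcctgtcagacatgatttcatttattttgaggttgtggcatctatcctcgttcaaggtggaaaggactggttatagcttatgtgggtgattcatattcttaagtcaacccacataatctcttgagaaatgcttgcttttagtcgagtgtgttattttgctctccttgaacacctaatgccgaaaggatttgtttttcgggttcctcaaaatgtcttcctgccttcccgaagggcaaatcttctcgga

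The letters occurred once in the Atg7 window, beginning at -132 from the start site, and once in the Rragc window, at -112. Neither the Map1lc3b nor the Atp6v0a1 window held them, and the longer form TCACGTGA, which contains CACGTG, was in none of the 4. Among 17492 protein-coding genes of the same table, 8.91% had CACGTG in a window of this length. It was found in 39 of 176 genes of the autophagy and lysosome lists described further on (22.2%). Windows of Map1lc3b and Rragc were rich in G and C (68.0% and 70.7%), whereas those of Atg7 and Atp6v0a1 were at 42.7% and 45.0%, against a median of 52.7% over 32851 windows. Which start site liver uses was not analysed here, and the arrays give no reading of these windows.

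Spot intensities are deposited on a linear scale in arbitrary units. The 174-day arrays were the dimmest of both kinds, with medians of 35.8 on A and 60.8 on B, against 332.8 to 402.5 in the other mice. Values under an array's 5th percentile were therefore set to that percentile, and the log2 values of the 3 A arrays, and of the 3 B arrays, were quantile-normalized. Differences below are between these normalized log2 values, and a difference of at least 1, which is 2-fold, was counted. Hepatocyte markers with a spot (Alb, Apoa1, Ttr and Serpina1e, 4 of 9 listed) all lay above the median level. Their summed normalized intensity was 23573 in the 17-day, 20493 in the 174-day and 32722 in the restricted mouse. Lists for Kupffer cells, endothelium, bile duct, stellate and erythroid cells had 2 to 4 genes with a spot each, and no lymphocyte marker had one. The summed levels of these other lists were 832, 751 and 726 for Kupffer cells (C1qa and C1qb), 1224, 1026 and 902 for endothelium, 577, 629 and 477 for bile duct, 2279, 2609 and 2030 for stellate cells, and 3223, 3046 and 3450 for erythroid cells, in the same order of mice. No marker spot was listed at 0, and the part of these levels in the results was not tested. In whole liver, fewer cells of a type and less RNA per cell cannot be told apart.

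Of the 7 member spots, 3 were at least 2-fold lower and 1 at least 2-fold higher at 174 than at 17 days. Over all spots the shares were 1.68% lower and 2.28% higher. The 1 higher was the dim Map1lc3b spot on array A, which lay under the floor in the 17-day mouse. With the floor at the 25th percentile its difference was 0.00 and no member spot was 2-fold higher. In the restricted against the 174-day mouse none of the 7 passed 2-fold, where 9.31% of all spots did in either direction. Against the 17-day mouse 1 of the 7 was at least 2-fold lower in the restricted mouse (1.14% of all spots). These counts follow from how the genes were picked. The comparisons share mice, so that the restricted-against-young difference of a spot is the sum of its age and diet differences. The 174-day mouse enters the age and diet differences with opposite sign, so an error in its value moves them in opposite directions. Opposite signs in the age and diet comparisons are therefore not independent readings.

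**Figure D1:**
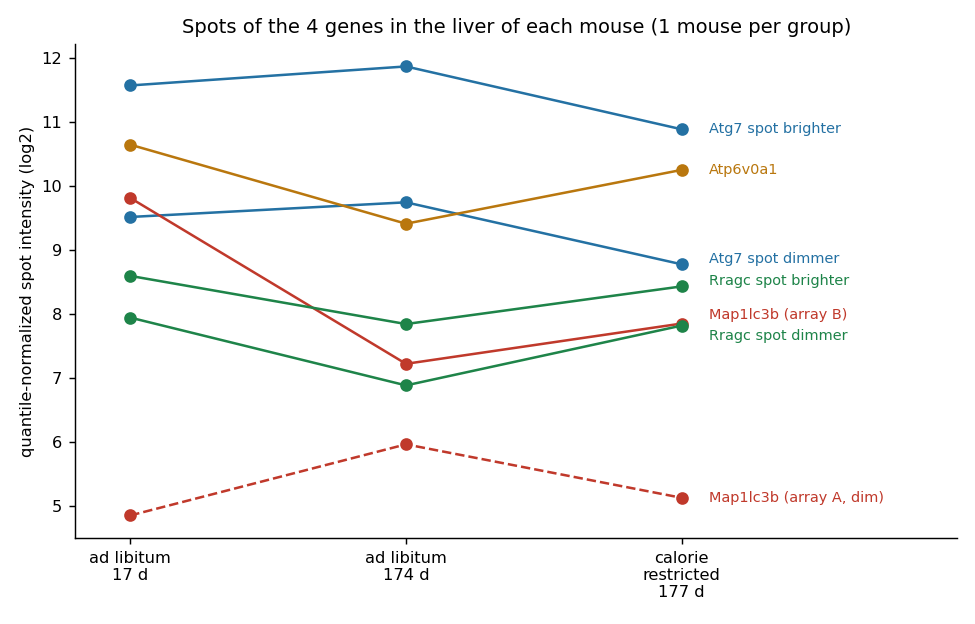
Quantile-normalized log2 intensity (vertical axis) of each member spot in the ad libitum 17-day, ad libitum 174-day and calorie-restricted 177-day mouse, with 1 mouse per group, lines joining the values of a spot and a dashed line for the dim Map1lc3b spot. The Map1lc3b spot on array B drops from 9.82 to 7.22 between the ad libitum mice, the Rragc and Atp6v0a1 spots are lowest in the 174-day mouse, and both Atg7 spots are lowest in the restricted mouse.

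Map1lc3b, which encodes the membrane-bound autophagosome protein LC3B, had its widest differences at its spot on array B, between the 17-day mouse and each older mouse. That spot read 1717 in the 17-day, 44.1 in the 174-day and 375.8 in the restricted mouse. The 17-day mouse was thus far above both older mice, and in units of each array's median the readings were 4.27, 0.72 and 1.13. On the normalized log2 scale the levels were 9.82, 7.22 and 7.85. The difference of the 174-day from the 17-day mouse was -2.60 log2, 6.05-fold lower, and only 3 of the 8448 spots of array B had a lower difference. That of the restricted from the 17-day mouse was -1.97 log2, 3.91-fold lower, with 2 spots lower still. Between the older mice the restricted mouse was 0.63 log2 higher.

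With no replicate mice, each value is given beside the middle 90% of spots of similar brightness, within 5 percentiles of mean level. Since the genes were picked for their differences, lying outside that range restates the choice and supports nothing. For the array B spot of Map1lc3b these 845 spots ran from -0.57 to 0.59 for the 174-day against the 17-day mouse and from -0.61 to 0.63 for the restricted against the 17-day mouse, and both differences lay outside. The 0.63 between the older mice lay inside -1.07 to 1.00.

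The other Map1lc3b spot, on array A, did not follow it. Its readings were 50.4 at 17 days, 12.97 at 174 days and 77.1 under restriction. All 3 readings were dim, and that of the 17-day mouse lay under the floor of 62.9, so its level there is only a bound. After normalization this spot was 1.11 higher at 174 than at 17 days and 0.28 higher in the restricted than in the youngest mouse, the opposite direction to array B. Both values were within the spread of spots of similar brightness (-0.86 to 1.30 and -0.58 to 0.68). The gap of 3.71 log2 between the 2 Map1lc3b spots in the age comparison exceeded that of 99.4% of 1383 genes with 2 spots at any level. Taking the median of both spots, Map1lc3b was at -0.74, -0.10 and -0.84 in the age, diet and restricted-against-young comparisons.

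**Figure D2:**
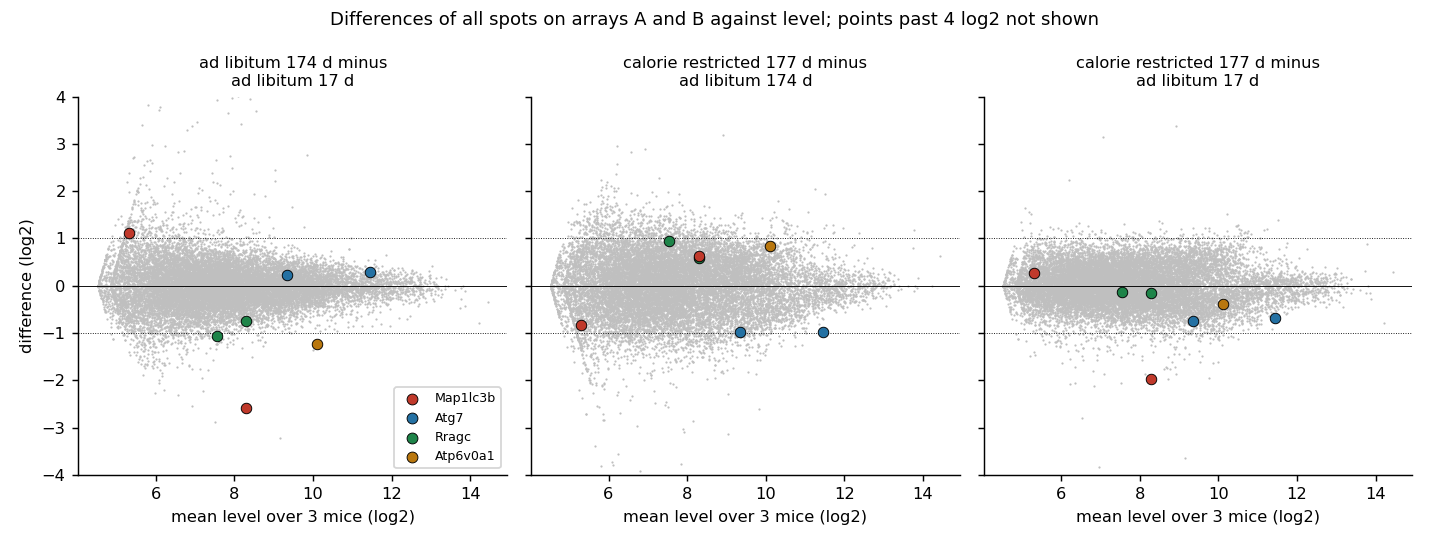
Log2 difference (vertical axis) against mean log2 level (horizontal axis) for the spots of arrays A and B, grey, with the 7 member spots in colour and dotted lines at 2-fold; spots past 4 log2 are not drawn. The array B spot of Map1lc3b lies at -2.60 and -1.97 against the 17-day mouse, outside the grey cloud. In the diet panel the 2 Atg7 spots lie at -0.98 and -0.97, near the lower dotted line, with 5.94% and 6.13% of array A spots lower.

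Atg7, the E1-like enzyme gene, was lowest in the restricted mouse at both of its spots, which are on array A. The brighter spot read 6430 in the 17-day, 1167 in the 174-day and 3390 in the restricted mouse. Relative to each array's median, these were 17.7, 32.6 and 9.04. The dimmer spot read 1419, 214.4 and 960.3, or 3.90, 5.99 and 2.56 times the array median. In both cases the 174-day mouse had the lowest raw reading and the highest reading relative to its own array.

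The difference of the restricted from the 174-day mouse was -0.98 log2 (1.98-fold lower) at the brighter spot and -0.97 (1.96-fold lower) at the dimmer spot. The middle 90% of spots of similar brightness began at -0.76 and -0.96, so the brighter spot lay outside and the dimmer at the edge. With each array centred on its median and not quantile-normalized, these differences were -1.85 and -1.23, past 2-fold. Against the 17-day mouse the restricted mouse was at -0.69 at the brighter and -0.74 at the dimmer spot, inside the spread, which began at -0.74 and -0.83. The ad libitum mice differed by 0.30 and 0.23, also inside. The order from highest to lowest was 174 days, 17 days and restricted, with both neighbouring pairs inside the spread of spots.

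Rragc, the gene of the RagC GTPase, was lowest in the 174-day mouse at both spots on array A. The brighter spot read 795.4 in the 17-day, 48.8 in the 174-day and 756.3 in the restricted mouse, which is 2.18, 1.36 and 2.02 times the array medians. The dimmer spot read 520.5, 24.9 and 505.3, or 1.43, 0.70 and 1.35 times the medians. The 17-day and the restricted mouse were close at both spots and the 174-day mouse stood below them.

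The difference of the 174-day from the 17-day mouse was -0.75 log2 at the brighter Rragc spot and -1.06 at the dimmer, both just outside the middle 90% of spots of similar brightness, which began at -0.71 and -0.77. The restricted mouse was above the 174-day mouse by 0.59 and 0.94, where that range ended at 0.86 and 0.93, so the brighter spot lay inside and the dimmer at the edge. Between the restricted and the 17-day mouse the differences were -0.16 and -0.12, inside the spread.

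Atp6v0a1, the proton pump subunit gene, had 1 spot, on array A. It read 3127 in the 17-day, 162.3 in the 174-day and 2480 in the restricted mouse, or 8.58, 4.53 and 6.61 times the array medians. The order was the same as for Rragc, with the 174-day mouse lowest. The difference of the 174-day from the 17-day mouse was -1.24 log2, 2.36-fold lower, and 78 of the 8448 spots of array A had a lower difference. Spots of similar brightness ran from -0.52 to 0.45. The restricted mouse was 0.84 above the 174-day mouse, at the edge of a spread that ended at 0.85. Against the 17-day mouse it was at -0.39, inside the spread.

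Whether 2 spots of a gene give the same answer on these arrays was examined over 483 genes with exactly 2 spots above the median level. Their differences had the same sign in 54.9% of genes for age, 52.2% for diet and 52.2% for restricted against young, and the median gap was 0.31, 0.52 and 0.41 log2. The Atg7 spots differed by 0.07, 0.01 and 0.05 in these comparisons, and in the diet comparison only 2.07% of the 483 genes had a smaller gap. The Rragc spots differed by 0.31, 0.35 and 0.04, close to the median gap in the age comparison.

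The paired spots of Atg7 and of Rragc also shared a position. Differences of spots were correlated at distances that divide the spots of an array evenly, from 8 spots upward, and other distances were not tried. Among these the mean r over the comparisons and arrays was highest, at 0.40, for 22 spots in the deposited order, here called a row. Both Atg7 spots had place 3 within their rows, and both Rragc spots had place 14. Of the 483 genes, 41 had both spots at the same place of the same array. Their median gap in the diet comparison was 0.28, against 0.54 for 222 genes with spots at other places of the same array, and the sign was shared in 68.3% against 49.1%. In the age comparison the gaps were 0.19 and 0.32 and the signs were shared in 53.7% and 53.2%. The sequence on each spot was not used here, and overlap between the clones of a gene was not tested.

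**Figure D3:**
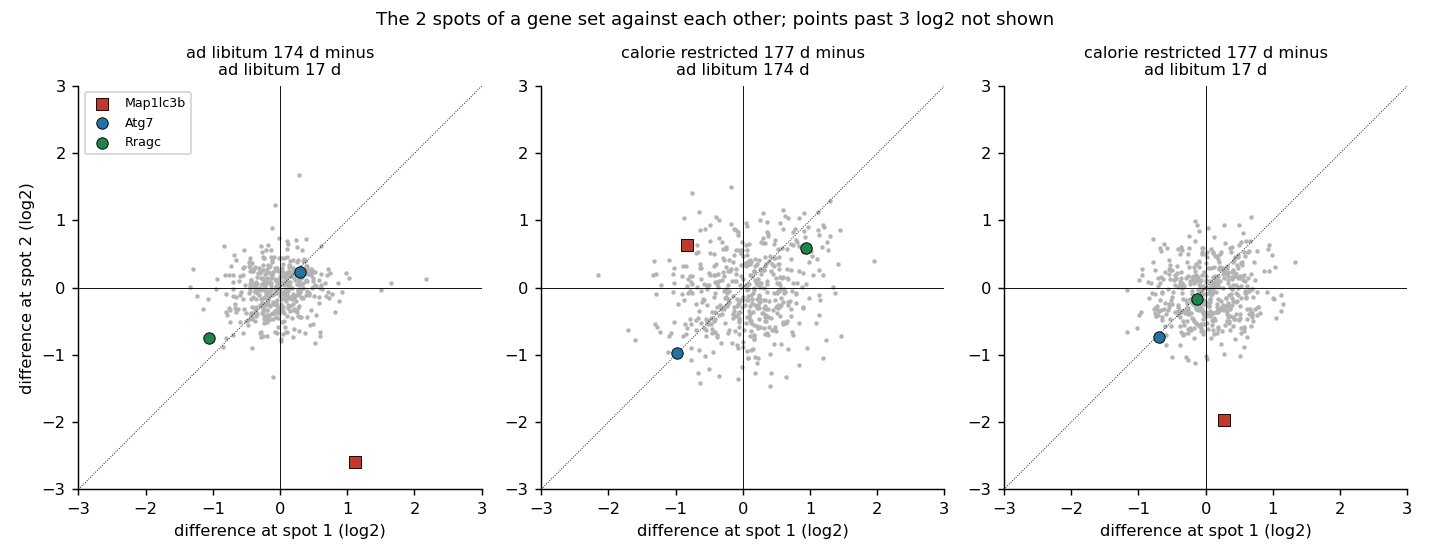
Log2 difference at the first spot (horizontal axis) against that at the second spot (vertical axis) of a gene, for 483 genes with 2 spots above the median level in grey; Atg7, Rragc and the Map1lc3b pair with its dim spot (square) are in colour, and points past 3 log2 are not drawn. Atg7 lies on the diagonal in each panel, Rragc near it, and Map1lc3b at 1.11 and -2.60 in the age panel lies far from it.

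Position bore on some members more than on others. Spots in the row of Atp6v0a1 had a median of -0.57 in the age comparison, and those at its place had a median of -0.34. With the median deviation of each row and place removed, Atp6v0a1 was at -0.45 in the age and -0.12 in the diet comparison. For the brighter and dimmer Atg7 spots the diet differences became -0.50 and -0.04, where the spots at that place had a median of -0.46. The Rragc differences for age became -0.36 at the brighter and -0.70 at the dimmer spot. The array B spot of Map1lc3b stayed at -2.25 in the age comparison and -2.06 in the restricted mouse against the 17-day mouse, with medians of -0.18 and -0.06 in its row. The correction was then repeated with blocks of 528 spots in place of rows and with places counted within blocks. An array held 16 such blocks, so a place median rested on 16 spots, the spot itself included. The age differences were then -0.65 for Atp6v0a1, -2.46 for the Map1lc3b spot on array B, and -0.52 and -0.53 for the Rragc spots. The Atg7 spots were at -0.62 and -0.07 for diet.

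**Figure D4:**
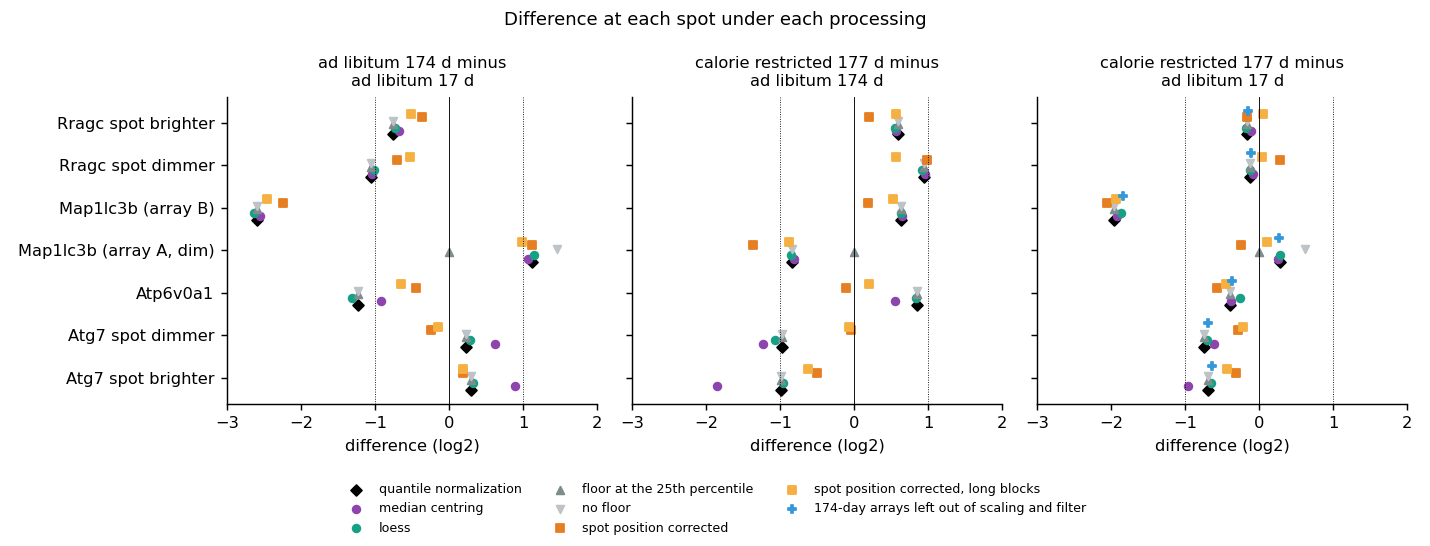
Log2 difference (horizontal axis) at each of the 7 member spots in the 3 comparisons, with a mark for each way of processing except no scaling, which is not drawn, and dotted lines at 2-fold. The Map1lc3b spot on array B stays between -2.64 and -2.25 for age under every alternative drawn, while Atp6v0a1 ranges from -1.32 to -0.45 and its diet difference from -0.12 to 0.84.

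Other genes of the pathway were taken from 7 lists, which held 222 symbols. A spot was named for 136 of these genes, and 80 had a spot above the median level, which was required for a gene to be counted, so a gene could enter through the mouse in which it was bright. A gene took the median over such spots. In the age comparison 2 of the 80 genes were at least 2-fold apart, both lower (2.50%), against 1.16% of all 3865 measured genes. These were the members Map1lc3b and Atp6v0a1, so that count was fixed by how the members were picked, and of the 76 other list genes 0 were 2-fold apart for age. In the diet comparison 7 were (8.75%, against 6.86%), 3 higher and 4 lower in the restricted mouse. Median centring of each array in place of quantile normalization gave 2 higher and 14 lower. For restricted against young Map1lc3b alone was, of 80 genes (1.25%, against 1.58%), and 0 of the 76 others. The medians of the 80 genes were -0.07, 0.04 and -0.11 log2, and those of all genes -0.03, -0.04 and -0.09.

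Genes that start the autophagosome had lower values at 174 than at 17 days in 7 of 8 cases, with a median of -0.33 and none 2-fold apart, where 53.5% of all genes lay below 0. Among the 7, Atg101 (-0.003) and Ulk1 (-0.02) lay barely below 0. With the median deviations by row and place removed, the brighter Ulk1 spot was at 0.001 and the Vmp1 spot at 0.03. Atg13, a subunit of the ULK1 kinase complex, was at -0.66 and Atg2b, of the lipid transfer proteins that feed the growing membrane, at -0.47, while the kinase gene Ulk2 was at 0.52. In the diet comparison, which subtracts the same 174-day mouse, Atg13 was at 1.37, Ulk1 at 0.70 and Ulk2 at -1.03, with a median of 0.24. A second, dimmer spot of Atg13 brought it to -0.10 for age and 0.93 for diet. In the restricted against the 17-day mouse the list ran from -0.72 for Wipi1, a phosphoinositide-binding protein of early autophagosomes, to 0.71 for Atg13, with 5 of 8 below 0.

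Among the ubiquitin-like conjugation genes, to which Map1lc3b and Atg7 belong, 8 were measured. Atg3, the gene of the E2-like enzyme that acts after ATG7 in attaching LC3 to lipid, rested on 1 spot. It was at 0.12 for age, -1.08 for diet and -0.97 for restricted against young, where Atg7 was at 0.26, -0.98 and -0.71. Corrected for position by rows, the diet differences were -0.87 for Atg3 and -0.27 for Atg7. The other LC3 and GABARAP family genes with a bright spot were Map1lc3a (-0.05, -0.50 and -0.54) and Gabarapl2 (-0.10, 0.47 and 0.37), neither near the Map1lc3b spot on array B. Atg5 and Atg12, whose products are joined to each other, were at -0.49 and -0.19 for age and at 0.15 and 0.04 for diet. The protease gene Atg4c was at -0.48 for age. In the restricted against the 17-day mouse 7 of the 8 genes lay below 0, with a median of -0.44, where 58.8% of all genes lay below 0. That count and median include the members Map1lc3b (-1.97) and Atg7 (-0.71), which were picked for their differences. Of the genes not picked, Atg5 was at -0.34, Atg12 at -0.15 and Atg4c at -0.11.

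Cargo receptors and fusion factors gave 17 genes, with medians of -0.10, -0.09 and -0.10. None was 2-fold apart for age, where Stx17, the SNARE of autophagosome fusion with the lysosome, was highest (0.67) and the receptor Tax1bp1 lowest (-0.59). Fundc1, a mitophagy receptor, was at 0.44 and the receptor Nbr1 at -0.49. In the diet comparison Stx17 was lowest (-1.20), followed by Fundc1 (-0.62), and Calcoco1 was highest (1.10), followed by the adaptor Wdfy3 (0.88). Calcoco1 was at 0.39 with median centring. Against the 17-day mouse the list ran from -0.87 for Retreg1, a receptor for endoplasmic reticulum, to 0.82 for Calcoco1. With its dimmer spot, Retreg1 was at 0.08.

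Rragc was the only Rag GTPase gene with a spot above the median level among 8 measured amino acid sensing genes. Picked for its differences, it was the lowest of them for age (-0.91) and the highest for diet (0.76). Mios, a subunit of the GATOR2 complex, followed for age at -0.79, but a dimmer spot brought it to -0.25. The position correction by rows put Rragc at -0.53 for age and the brighter Mios spot at -0.59. Slc38a9, the lysosomal arginine sensor, was at -0.37 for age and 0.42 for diet, and Castor1, a cytosolic arginine sensor, at -0.34 and 0.36. Wdr24, also of GATOR2, went the other way, at 0.30 for age and -0.73 for diet, as did Sesn1, a sestrin, at 0.14 and -0.91. Position correction by rows put Wdr24 at -0.15 and -0.08 and Sesn1 at -0.23 and -0.16, so neither then went the other way for age. It put Castor1 at -0.09 and -0.06 and the brighter Slc38a9 spot at -0.11 and 0.25. The list medians were -0.24, 0.28 and -0.29, with none 2-fold apart.

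Of mTORC1 and its regulators 7 genes were measured. Mtor, the kinase itself, was at 0.58 for age and -1.08 for diet, while Rptor, its partner in the complex, was at 0.10 and -0.04. The beta subunit genes of the energy sensor AMPK were opposed, with Prkab1 at -0.60 and 1.22 and Prkab2 at 0.64 and -0.92. The alpha subunit gene Prkaa1 was at 0.40 and -0.69. Position correction by rows put Prkab1 at -0.12 and 0.38, Prkab2 at 0.28 and -0.37 and Prkaa1 at 0.12 and -0.28. Mtor was then at -0.05 and -0.15. Tsc1, of the complex that restrains mTORC1, was at -0.40 and 0.05. In the restricted against the 17-day mouse values ran from -0.50 for Mtor to 0.63 for Prkab1, and the list median was -0.27.

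Vacuolar proton pump genes gave 10 measured genes with medians of -0.17, 0.23 and -0.13. Atp6v0a1, picked for its differences, was the lowest for age (-1.24) and the highest for diet (0.84). After the position correction by rows it was at -0.45 and -0.12, and Atp6v1e1 was at -0.63 for age. The other measured genes for a subunits were Atp6v0a2 at 0.20 and 0.47 and Atp6v0a4 at 0.20 and -0.30. With a dimmer spot Atp6v0a4 was at 0.10 and 0.15. Atp6v1e1, a stalk subunit, was at -0.51 for age and 0.38 for diet, and Atp6v0d1, of the membrane sector, at -0.43 and 0.29. Atp6v1a, the catalytic subunit, had 3 spots above the median level and was at 0.02 and -0.18. Its spots ran from -0.16 to 0.30 for age and from -1.01 to 0.10 for diet. Wdr7, whose product associates with the pump, was lowest for diet (-0.48) and for restricted against young (-0.44), where Atp6v0a2 was highest (0.66).

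Lysosomal enzymes and membrane proteins gave 22 genes and none was 2-fold apart in any comparison, with medians of 0.04, -0.03 and -0.05. Ctsc, the dipeptidyl peptidase cathepsin C, had the pattern of the Rragc spots at -0.96 for age and 0.91 for diet. Gm2a, the activator of ganglioside breakdown, was at -0.54 and 0.80, and the acid phosphatase Acp5 at -0.46 and 0.82. At the other end for age were Ctsa, a carboxypeptidase (0.48), and Laptm4b, a lysosomal membrane protein gene (0.39), which was lowest for diet (-0.65). Lamp1, a main protein of the lysosomal membrane, was at 0.05 and 0.06. In the restricted against the 17-day mouse the range was from -0.49 for Ctsb, cathepsin B, to 0.40 for Man2b1, a mannosidase.

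After the position correction by rows none of the 7 genes at 2-fold in the diet comparison stayed there. Atg3 was at -0.87, Stx17 at -0.82, Calcoco1 at 0.65, Atg13 at 0.57, Ulk2 at -0.48, Prkab1 at 0.38 and Mtor at -0.15.

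**Figure D5:**
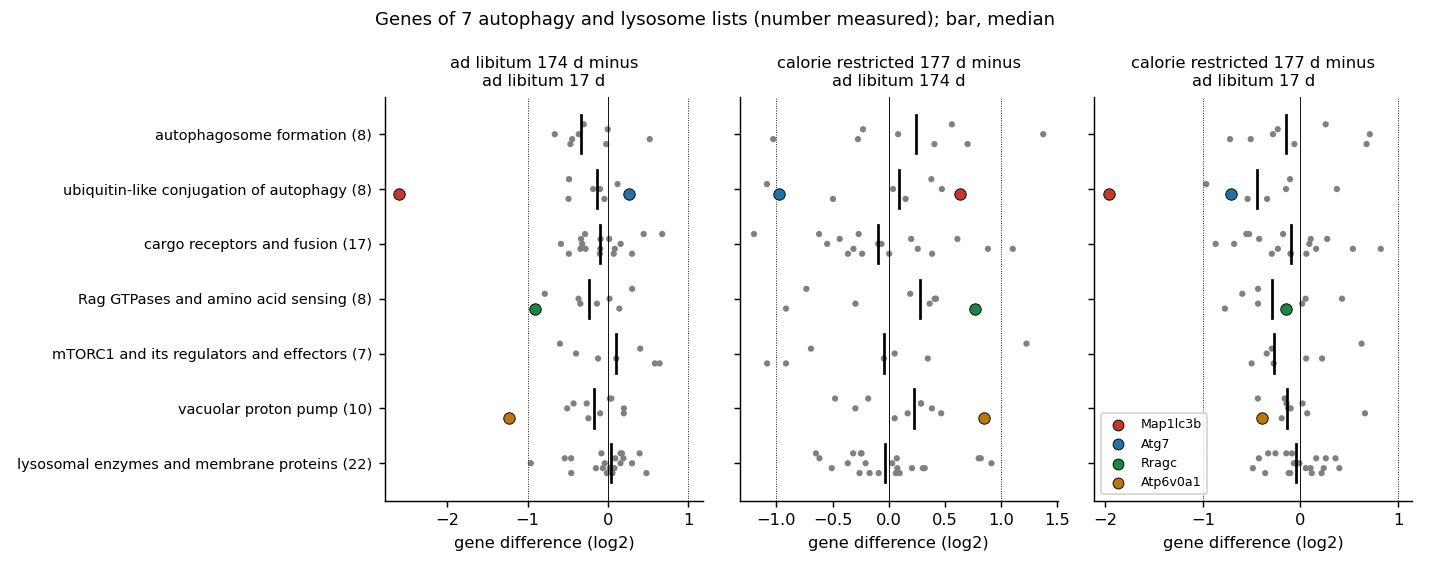
Log2 gene difference (horizontal axis) of each of 80 measured genes in 7 lists (rows, with the number measured), in the 3 comparisons; bars are list medians, dotted lines 2-fold, and the 4 members are in colour. Map1lc3b and Atp6v0a1 at -2.60 and -1.24 are the only points past 2-fold in the age panel, and the list medians lie between -0.44 and 0.28 in all panels.

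The genes most like each member were sought among 3865 genes by the distance between their centred log2 values in the 3 mice. For Rragc these were Tpm3, Necap1 and Srsf3, at distances of 0.03 to 0.04. For Atg7 they were Fez1, B4galt3 and Dazap1, at 0.01 to 0.02. Atp6v0a1 was nearest to Oosp2, Dppa1 and Serinc5 (0.14 to 0.21). Map1lc3b, here its array B spot alone, was nearest to H3f3b, Cyhr1 and Gstp1, at 0.81 to 1.06, so no gene was close to it. Among the members, Rragc and Atp6v0a1 were 0.24 apart and all other pairs between 1.21 and 2.03. With 3 mice such distances rest on 3 values per gene, and many genes can lie near any pattern.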

How the data were processed

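The deposited values were taken as linear spot intensity because none was negative, their distribution had a long upper tail and array medians lay several-fold apart. How the authors obtained these intensity values, and whether they removed background or scaled arrays, is not given in the sources used here. Spots were named through GEO's platform annotation: 9663 of 16896 had 1 symbol, 436 several and 6797 none. RefSeq gene numbers (GRCm38.p6) matched 9641 and changed 0 symbols. No column of values was left without a mouse. The members, lists and tests were chosen with earlier results of these data known.

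A gene was counted from spots with a mean level in the upper part of its array kind, past the 50th percentile, whereas members were described at every spot. No test was possible with 1 mouse per group. The genes named were the members, list genes at least 2-fold apart, up to 2 highest and 2 lowest genes of each list, and the 3 genes nearest to each member. Others named as members of a list were chosen after their values were seen. Alternatives were median centring, no scaling, loess (span 0.3), other floors, other filters, the brightest spot, a 1.5-fold threshold, each array kind alone, omission of spots reading exactly 10, and removal of median deviations by row of 22 spots and by place. Blocks of 528 spots, and leaving the 174-day arrays out of scaling and filter, were added after the data were seen. The procedure was tested on simulated data, with changes planted only in the 174-day mouse. Spread in these data was independent between spots and had no effect of spot position. The simulation thus has no bearing on the position effects above. Python 3.11.15, numpy 2.4.6, pandas 2.3.3, statsmodels 0.14.6 and matplotlib 3.10.9 were used.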

Additional observations from a re-analysis of the deposited data

How the results depend on the processing

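The main counts were 4 (age), 0 (diet) and 1 (restricted against young) of 7 member spots, and 2, 7 and 1 of 80 list genes, at least 2-fold apart. Without scaling, where differences in array brightness remain, the member counts for age and diet were 7 and 7 and the list counts 80, 79 and 3. With median centring 2 member spots passed for diet, and the list counts were 1 for age and 16 for diet, while the median of all genes moved from -0.03 to 0.21 for age and from -0.04 to -0.31 for diet. The list median was then 0.14 for age and -0.28 for diet. Loess gave 1 member spot for diet. The position correction by rows left 2 member spots for age and 1 for diet, and 1 list gene for age and 0 for diet. With blocks of 528 spots it left 1 member spot for age, 1 list gene for age and 2 for diet. Keeping only the top 25% of spots by level gave 1 of 3 member spots for age and 0 for restricted against young, and 1, 4 and 0 list genes. Without the filter on dim spots the list counts were 4 of 136 for age and 0 for restricted against young. At 1.5-fold, 7 member spots passed for diet and 3 for restricted against young, and 10, 24 and 13 list genes. On array A alone the member count for restricted against young was 0 and the list counts were 1, 1 and 0. On array B alone 1 member spot and 1 list gene passed for age. The causes of these shifts were not tested, except that single array kinds and stricter filters hold fewer spots by construction.

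The member genes' median differences moved by more than the spread between spots of a gene in 31 of 139 alternatives. For Atg7, Rragc and Atp6v0a1, other floors, the median-level filter, array A alone and omission of spots reading exactly 10 changed nothing. All spots of these genes are on array A and above the median level. The 31 of 139 is therefore not a measure of stability. Without scaling, Atp6v0a1 was at -4.27 for age and 3.93 for diet, the Map1lc3b spots were at -5.28 on array B and -2.28 on array A for age (1.11 with quantile normalization), and Atg3, Mtor, Stx17 and Ulk2 turned from lower to higher for diet (1.03 to 1.13). Map1lc3b for age was -2.60 by its brightest spot and 1.11 on array A alone. The other alternatives kept the counts within 1.5 times the main count. Leaving the 174-day arrays out of scaling kept Map1lc3b on array B at -1.84 in the restricted against the 17-day mouse. The low brightness of the 174-day arrays limits the values of that mouse, and the floor limits the dim Map1lc3b spot.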
